A study of Rattus norvegicus with 12 samples.

Results

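The genes described here copy DNA and drive the step from G1 into S phase of the cell cycle. A list of 43 rat genes was named, and the 38 of them that had a probe set with exactly 1 gene symbol were taken, out of 14324 genes measured in all. Mcm3, Mcm4, Chaf1a, Ccnd3 and E2f2 had no such probe set and were not analysed here. The measured members comprised 4 subunits of the MCM helicase ring, 9 genes of origin licensing and firing, 9 genes of polymerases, clamp and lagging strand, 5 of nucleotide supply, 2 of chromatin assembly, 7 G1/S cyclins and cyclin-dependent kinases (CDKs), and 2 E2F factors.

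The cells were heart muscle cell cultures prepared by enzymatic digestion from Sprague-Dawley rat pups aged 2 days, all of 1 litter. After 3 days in culture they received for 3 days either the vehicle, 0.1% DMSO (dimethyl sulphoxide), or DEHP in that same 0.1% DMSO at 1, 10 or 50 µg/ml. DEHP, di(2-ethylhexyl) phthalate, is a plasticiser of polyvinyl chloride. Each of the 4 groups had 3 Affymetrix arrays, 12 in all, which the series design calls biological replicates, and the series title asks for dependence on dose. No genotype or transgene differed between groups, and such primary cultures can hold other heart cells besides muscle cells.

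Before a cell divides, the origin recognition complex, with Cdc6 and Cdt1, loads the ring-shaped MCM helicase onto DNA. Cyclin D with Cdk4 or Cdk6, and then cyclin E with Cdk2, inactivate the retinoblastoma protein and release E2F factors, which switch on many replication genes. Heart muscle cells of the rat leave the cell cycle soon after birth, whereas other cells of a heart culture can go on dividing.

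Every value is a log2 ratio of an array to that gene's median over the 12 arrays, so it carries a difference and no level, and one gene's level cannot be set against another's. The direction of the ratio (array over median) is recorded in no source used here. With the ratio turned, each sign below would turn, higher and lower would be exchanged, and so would the highest and lowest mean or array. Differences are therefore given on the log2 scale, where their size stays the same. Levels over background, and the levels of markers that define a cell type, were not analysed here. In such bulk samples fewer cells of a type and less RNA per cell cannot be told apart. Slides and scan dates were not analysed here, and how cultures were handled and their dose cannot be told apart. The second array at 10 µg/ml stood apart: the SD of its genes' deviations from their group means was 0.119, against 0.0591 to 0.0929 in the other 11 arrays. Its effect on a count is given where leaving it out moved that count by over 1.5 times.

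E2F factors bind a short sequence near the start of many replication genes, so the promoters of the members were read for it. RefSeq promoters on GRCr8, from 250 bases before to 50 after each listed start, held 29 of the 38 members. Orc1, Cdc6, Rrm2, Ccnd1, Ccnd2, Cdk6, Ccne2, E2f1 and E2f8 were not in the table. The motifs searched were TTTCCCGC, TTTGGCGC, TTTCGCGC and TTTGCCGC, on either strand, and matches could overlap. A match was found in 14 of the 29 members (48.3%), in 377 of 11806 measured genes (3.19%) and in 651 of all 27457 genes with a promoter (2.37%). The 6 stretches below belong to members with a match that were lower at 50 µg/ml, and capitals mark the matches.
Mcm2: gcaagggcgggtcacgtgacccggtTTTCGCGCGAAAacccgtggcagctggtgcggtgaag
Mcm5: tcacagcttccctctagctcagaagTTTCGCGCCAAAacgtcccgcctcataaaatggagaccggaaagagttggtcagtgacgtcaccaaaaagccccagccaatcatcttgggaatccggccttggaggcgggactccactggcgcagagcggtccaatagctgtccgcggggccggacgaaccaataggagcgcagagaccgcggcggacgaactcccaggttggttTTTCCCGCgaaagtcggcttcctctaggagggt
Mcm6: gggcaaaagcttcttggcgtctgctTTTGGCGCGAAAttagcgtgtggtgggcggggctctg
Cdt1: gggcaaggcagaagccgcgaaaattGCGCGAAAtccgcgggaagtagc
Pole: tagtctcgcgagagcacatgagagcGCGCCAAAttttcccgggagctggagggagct
Uhrf1: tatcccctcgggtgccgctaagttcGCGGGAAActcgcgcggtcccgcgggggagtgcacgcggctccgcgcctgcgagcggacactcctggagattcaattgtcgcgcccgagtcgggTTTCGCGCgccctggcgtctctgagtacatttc

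The Mcm2 stretch is chr4:122918072-122918133 on the minus strand, where 2 matches overlap as TTTCGCGC on both strands. Mcm5 is chr19:13488575-13488837 on the plus strand, with an overlapping pair of matches that begin at -213 and -209 from the listed start and TTTCCCGC at -8. Mcm6 is chr13:42404455-42404516 on the minus strand, again with an overlapping pair. Cdt1 is chr19:67529231-67529278 on the plus strand, Pole is chr12:52053633-52053689 on the minus strand, and Uhrf1 is chr9:1222968-1223119 on the plus strand, before 1 of its 3 listed starts. A match says only that these letters are present. The median difference of 50 µg/ml from the vehicle was -0.23 over the 14 members with a match, of which 8 were lower past the threshold. It was -0.12 over the 15 without one, of which 3 were lower. Against 1 µg/ml the same medians were -0.24 and -0.21, with 7 and 11 members lower. Members with no listed promoter are in neither set, and of these Orc1, Cdc6, Rrm2 and Cdk6 were lower at 50 µg/ml than with the vehicle. A link of matches to the differences was not tested. CCAAT stood in 18 of the 29 member promoters (62.1%), in 38.9% of measured genes and in 39.6% of all genes. GGGCGG stood in 21 (72.4%), in 50.8% of measured genes and in 36% of all genes.

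At 50 µg/ml, 15 of the 38 members were lower than with the vehicle and 1, Cdk4, was higher, with a limma p under 0.05 after Benjamini-Hochberg adjustment over 14324 genes. Of all genes 17.6% were called in this comparison, 8.84% lower and 8.75% higher, whereas 42.1% of the members were called. The median difference of the members was -0.16, against 0.02 over all genes, and 36 of the 38 members lay below 0, from -0.51 (Rrm2) to 0.24 (Cdk4). In 23 members the 3 arrays at 50 µg/ml all lay below the 3 vehicle arrays, an arrangement found in 16.5% of all genes. In 1 member, Cdk4, they all lay above, as in 19.5% of all genes. Since all cultures came from 1 litter, a p here reflects only the variation among those cultures, which may be technical, and the small number of arrays limits the precision.

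**Figure D1:**
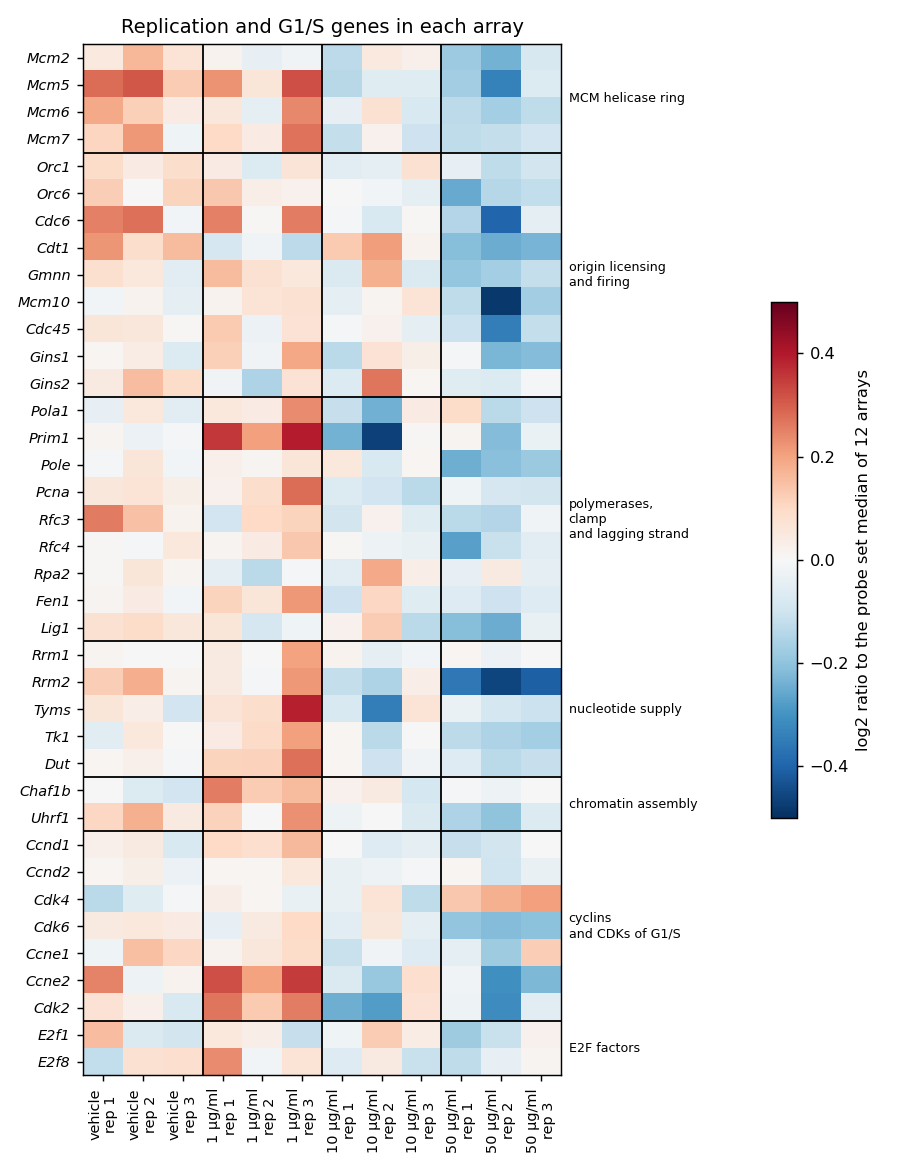
Log2 ratio to the gene's 12-array median of each of the 38 measured members (rows, grouped by role) in each of the 12 arrays (columns, grouped by dose), as a colour scale. The arrays at 50 µg/ml are mostly below 0 (33, 36 and 31 of the 38 members in the 3 arrays), with Cdk4 above 0 in all of them.

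The MCM ring is the helicase that opens the double strand, and 3 of its 4 measured subunits fell at 50 µg/ml, with a median of -0.26 over the 4. Mcm5 read 0.28, 0.31 and 0.13 in the vehicle arrays and -0.17, -0.34 and -0.07 at 50 µg/ml. All 3 treated arrays were below all vehicle arrays, and Mcm5 fell by 0.43 ± 0.08 (SE, n = 3 arrays per group, limma adjusted p = 0.00237). Mcm2 read 0.05, 0.17 and 0.07 with the vehicle and -0.18, -0.24 and -0.08 at 50 µg/ml. These groups did not overlap either, and Mcm2 fell by 0.26 ± 0.06 (adjusted p = 0.00840). Mcm6 fell by the same 0.26 ± 0.07 (adjusted p = 0.0214), a call that ended without the first or second vehicle array or the second or the third array at 50 µg/ml (adjusted p = 0.0507 to 0.0947). Mcm7 differed by -0.22 ± 0.07 and missed the threshold (adjusted p = 0.0564), although its groups did not overlap. It passed with array weights, with arrays centred on their median and with only the groups compared (adjusted p = 0.0370, 0.0466 and 0.0432). It also passed without the third vehicle array, the third at 1 µg/ml or the second at 10 µg/ml.

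Of the 9 genes that license and fire origins, 6 fell at 50 µg/ml, and the median over the 9 was -0.23. Cdt1, the loader that brings MCM rings to origins, read 0.22, 0.09 and 0.16 with the vehicle and -0.21, -0.25 and -0.23 at 50 µg/ml. The 3 treated arrays lay close together and far below the vehicle arrays, and Cdt1 fell by 0.39 ± 0.06 (adjusted p = 0.000392). Orc6, a subunit of the origin recognition complex, read 0.12, 0.0013 and 0.11 with the vehicle and -0.25, -0.14 and -0.12 at 50 µg/ml, with no overlap. It fell by 0.25 ± 0.05 (adjusted p = 0.00526). Cdc6, which loads the ring together with Cdt1, fell by 0.37 ± 0.10 (adjusted p = 0.0232).

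Cdc45, a part of the active helicase, fell by 0.23 ± 0.07 (adjusted p = 0.0269). Mcm10, which helps to activate the helicase, fell by 0.25 ± 0.08 (adjusted p = 0.0417), and its arrays at 50 µg/ml read -0.13, -0.48 and -0.17, the second array being the lowest of its 12. Orc1, the largest subunit of the origin recognition complex, lay at the threshold, with a fall by 0.16 ± 0.05 (adjusted p = 0.0498). Geminin (Gmnn), which binds and blocks Cdt1, differed by -0.19 ± 0.07 (adjusted p = 0.0778). Gmnn passed with array weights and with only the groups compared (adjusted p = 0.0292 and 0.0363), and without the second array at 10 µg/ml. Gins1 and Gins2, subunits of the GINS complex of the active helicase, differed by -0.15 ± 0.08 and -0.14 ± 0.08 (adjusted p = 0.231 and 0.273). The calls of Cdc6, Cdc45, Mcm10 and Orc1 did not hold in every omission of 1 array. Each ended without the second array at 50 µg/ml (adjusted p = 0.0921, 0.0907, 0.104 and 0.145). Each also ended without the first or the second vehicle array. Without the first these p were 0.0937, 0.0881, 0.106 and 0.144, and without the second 0.0959, 0.0833, 0.125 and 0.0814. Cdc45 was also lost without the third vehicle array (0.0509). Over all 12 omissions of 1 array the call of Mcm10 ended in 8 (adjusted p = 0.0509 to 0.125) and that of Orc1 in 9 (0.0541 to 0.145). For both genes those omissions included arrays at 1 and 10 µg/ml, which are not part of this comparison.

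Among the 9 genes of polymerases, clamp and lagging strand, 3 fell at 50 µg/ml and the median was -0.12. Pole, the catalytic subunit of the leading-strand polymerase, read -0.0090, 0.06 and -0.01 with the vehicle and -0.24, -0.21 and -0.18 at 50 µg/ml. No treated array reached a vehicle array, and Pole fell by 0.22 ± 0.05 (adjusted p = 0.00468). Lig1, the ligase that seals lagging-strand fragments, read 0.08, 0.09 and 0.06 with the vehicle and -0.21, -0.25 and -0.04 at 50 µg/ml. The groups did not overlap, but the third treated array stood nearer to the vehicle than the others. Lig1 fell by 0.24 ± 0.07 (adjusted p = 0.0344), as did Rfc3, a subunit of the clamp loader (0.24 ± 0.07 on the log2 scale, adjusted p = 0.0375). Both calls ended without either of the first or second arrays of the vehicle or of 50 µg/ml (adjusted p = 0.0930 to 0.122 for Lig1 and 0.0994 to 0.163 for Rfc3), and that of Lig1 also without the third vehicle array (0.0755).

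The other 6 genes of the fork missed the threshold at 50 µg/ml. Rfc4, another clamp loader subunit, differed by -0.16 ± 0.06 (adjusted p = 0.0679), the sliding clamp Pcna by -0.12 ± 0.06 (adjusted p = 0.218) and the flap nuclease Fen1 by -0.09 ± 0.06 (adjusted p = 0.341), each with its groups apart. The primase subunit Prim1, the polymerase alpha subunit Pola1 and the single-strand binding protein Rpa2 differed by -0.07, -0.03 and -0.04, with overlapping groups. The standard errors of these 6 ran from 0.06 to 0.10. Rfc4 was called with array weights and without the third array at 50 µg/ml.

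In nucleotide supply, Rrm2 alone of the 5 genes passed the threshold at 50 µg/ml, and the median was -0.11. Rrm2 is the small subunit of ribonucleotide reductase, which makes deoxyribonucleotides and is made mainly in S phase. It read 0.12, 0.18 and 0.01 with the vehicle and -0.36, -0.46 and -0.41 at 50 µg/ml, the lowest 3 of its 12 values. Rrm2 fell by 0.51 ± 0.07 (adjusted p = 0.000250), the difference of the largest size among the members in this comparison. Its 2 probe sets gave -0.50 and -0.52. The large subunit, Rrm1, differed by -0.01 ± 0.05 (adjusted p = 0.927).

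Tk1, the thymidine kinase of S phase, read -0.05, 0.05 and 0.0005 with the vehicle and -0.13, -0.15 and -0.17 at 50 µg/ml. The groups were apart, yet the difference of -0.15 ± 0.06 missed the threshold (adjusted p = 0.0857). Tk1 passed with array weights (adjusted p = 0.0459). Dut, which degrades dUTP, and Tyms, which makes dTMP, differed by -0.11 ± 0.05 and -0.08 ± 0.10 (adjusted p = 0.179 and 0.696). Without the second array at 10 µg/ml, 2 of the 5 nucleotide genes were called, Rrm2 and Tk1.

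Of the 2 genes of chromatin assembly, 1 was called at 50 µg/ml. Uhrf1, which carries DNA methylation to the new strand, read 0.10, 0.18 and 0.04 with the vehicle and -0.15, -0.20 and -0.07 at 50 µg/ml, without overlap, and fell by 0.25 ± 0.06 (adjusted p = 0.0138). This call ended without the second vehicle array (adjusted p = 0.0647) or the second array at 50 µg/ml (adjusted p = 0.0548). Chaf1b, a subunit of the histone chaperone CAF-1, read -0.0032, -0.07 and -0.09 with the vehicle and -0.01, -0.02 and 0.0032 at 50 µg/ml. Its groups overlapped and its difference was 0.04 ± 0.05 (adjusted p = 0.630).

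The kinases of G1 went opposite ways at 50 µg/ml. Cdk6 read 0.05, 0.05 and 0.04 with the vehicle and -0.20, -0.22 and -0.21 at 50 µg/ml, tight groups that were well apart, and fell by 0.25 ± 0.05 (adjusted p = 0.00273). Cdk4 read -0.14, -0.06 and -0.0095 with the vehicle and 0.14, 0.18 and 0.21 at 50 µg/ml. Here the treated arrays lay above all vehicle arrays, and Cdk4 rose by 0.24 ± 0.06 (adjusted p = 0.00853). Their partner cyclins Ccnd1 and Ccnd2 differed by -0.07 ± 0.05 and -0.04 ± 0.04 (adjusted p = 0.423 and 0.555).

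Of the genes that act later in G1, Ccne2 read 0.25, -0.02 and 0.02 with the vehicle and -0.02, -0.31 and -0.23 at 50 µg/ml. The groups overlapped slightly, and the difference of -0.26 ± 0.09 missed the threshold (adjusted p = 0.0747). Ccne2 passed with the replicate number as a block (adjusted p = 0.0257), and without the second array at 10 µg/ml or the first at 50 µg/ml. Cyclin E1 (Ccne1) and its kinase Cdk2 differed by -0.11 ± 0.07 and -0.14 ± 0.10 (adjusted p = 0.342 and 0.396). Neither E2F factor passed. E2f1, an activator, read 0.15, -0.07 and -0.09 with the vehicle and -0.18, -0.11 and 0.02 at 50 µg/ml, and differed by -0.08 ± 0.08 (adjusted p = 0.537). E2f8, a repressor of the family, read -0.12, 0.07 and 0.09 against -0.13, -0.04 and 0.01, a difference of -0.07 ± 0.08 (adjusted p = 0.631). Both E2F genes had overlapping groups.

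**Figure D2:**
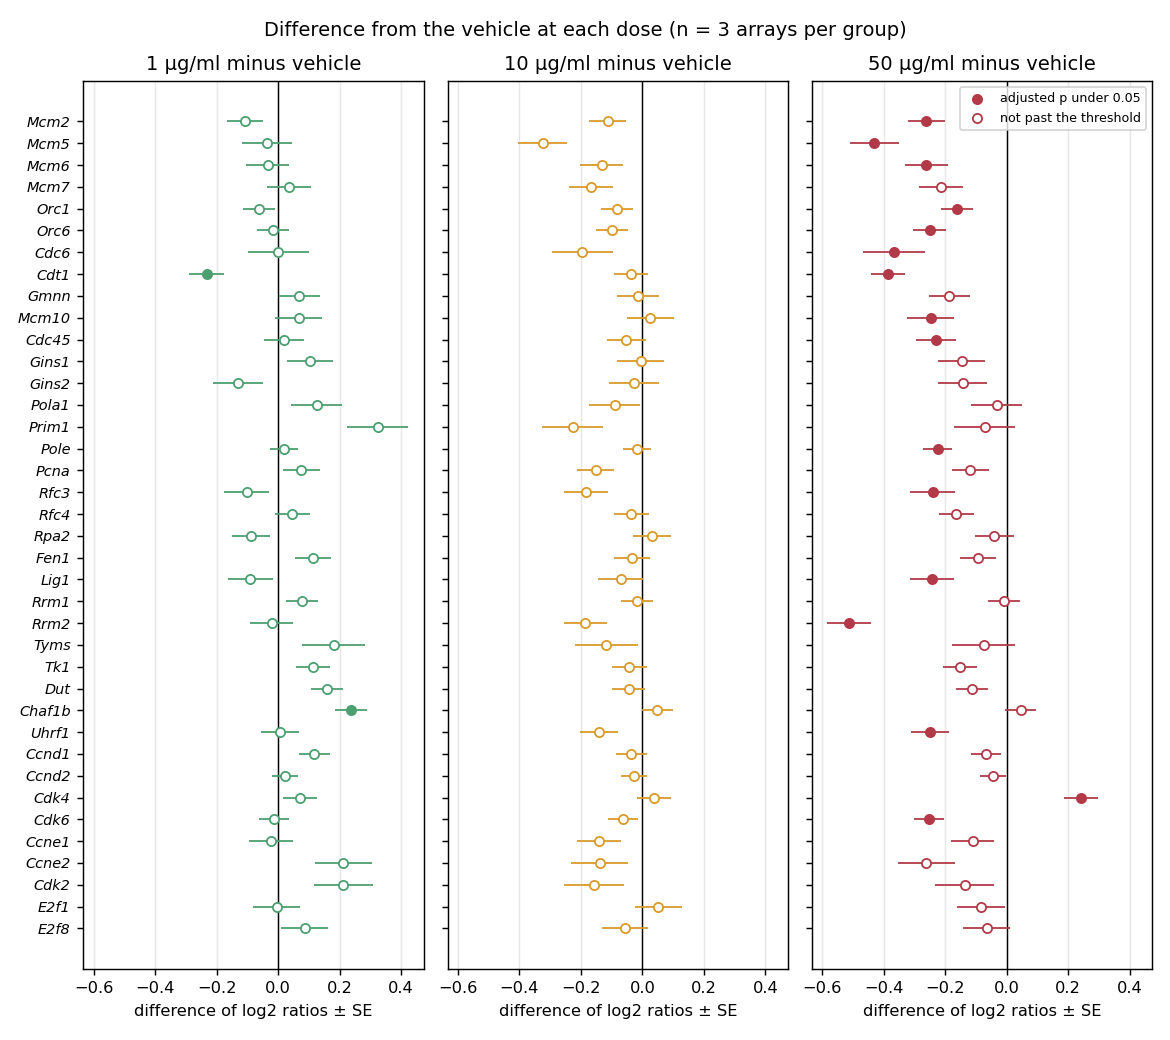
Difference in log2 ratio from the vehicle at each dose for the 38 members, grouped by role, with standard errors (n = 3 arrays per group), and filled markers for limma adjusted p under 0.05. At 50 µg/ml, 15 members are called lower and Cdk4 higher, at 1 µg/ml Cdt1 lower and Chaf1b higher, and at 10 µg/ml none.

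When 1 array was left out, the members' median at 50 µg/ml stayed between -0.184 and -0.14, but the count of calls changed. The count went from 16 to 8 members without the second array of either the vehicle or 50 µg/ml. It was 9 without the first vehicle array. How many of all genes were called with 1 array left out was not analysed here. Whether such changes of a count are particular to the members or to a list is therefore not known. The calls of Mcm2, Mcm5, Orc6, Cdt1, Pole, Rrm2, Cdk4 and Cdk6 held in all 12 omissions of 1 array. For the licensing genes the count was 2 without the first or second vehicle array or the second array at 50 µg/ml, and 3 without the third vehicle array. For the fork genes it was 1 without the first or second array of either group.

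Other genes of the pathway were read beside the members at 50 µg/ml. Of all genes 17.6% were called in this comparison (8.84% lower, 8.75% higher), the share to set beside each list here and below. Of 29 further fork and origin genes 6 fell and 0 rose, with a median of -0.16. That is 20.7% called, near the 17.6% of all genes, though all of it lower. Without the second array at 10 µg/ml 10 were called. Gins3, another subunit of the GINS complex, fell by 0.59 ± 0.07 (adjusted p = 8.14e-05), and Cdc7, the kinase that fires origins, fell by 0.34 ± 0.06 (adjusted p = 0.00157). Wdhd1, which ties the helicase to polymerase alpha, fell by 0.24 ± 0.05 (adjusted p = 0.00521). Of 14 further nucleotide genes 2 fell (Ctps1 and Dtymk) and 1 rose (Shmt1), with a median of 0.07. That is 21.4% called, also near the share of all genes. These 3 calls each ended without the first vehicle array (adjusted p = 0.0998, 0.159 and 0.0845), the first array at 50 µg/ml (0.0722, 0.0552 and 0.104) or the second at 50 µg/ml (0.0607, 0.162 and 0.0570).

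Of 8 genes of replication-coupled chromatin and DNA methylation 4 fell at 50 µg/ml, and the median was -0.22. They included Dnmt1, the maintenance methyltransferase that Uhrf1 guides, which fell by 0.28 ± 0.04 (adjusted p = 0.000411), and the chromatin remodeller Hells, which fell by 0.65 ± 0.11 (adjusted p = 0.00105). Cdca7, a partner of Hells, fell by 0.27 ± 0.07 (adjusted p = 0.0246), a call that ended without the first or second vehicle array or the first or the third at 50 µg/ml (adjusted p = 0.0544 to 0.0946). Without the first or second vehicle array or the third at 50 µg/ml the count was 2. Of 8 S-phase repair genes 4 fell and the median was -0.28, with Rad54l lower by -0.58 ± 0.07, Brca1 by -0.45 ± 0.08 and Brca2 by -0.35 ± 0.06 (adjusted p = 0.000171, 0.00190 and 0.00103).

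Of 20 further regulators of G1/S 5 fell and 1 rose, with a median of -0.13. Skp2, which targets the CDK inhibitor p27 for destruction, fell by 0.43 ± 0.06 (adjusted p = 0.000322), and Mycn fell by 0.65 ± 0.11 (adjusted p = 0.000862). Its relative Myc rose by 0.47 ± 0.05 (adjusted p = 4.62e-05). Cyclin A2 (Ccna2) fell by 0.39 ± 0.10 (adjusted p = 0.0204), a call that ended without the second or the third vehicle array or the third at 50 µg/ml (adjusted p = 0.0632, 0.0650 and 0.0871). Rb1, the retinoblastoma gene, differed by -0.20 ± 0.07 (adjusted p = 0.0846). It passed when the second array at 10 µg/ml was left out and when only the groups compared were fitted (adjusted p = 0.0287 and 0.0395).

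Among 7 CDK inhibitors 2 rose and 1 fell, and the median was 0.07. Cdkn1c (p57) rose by 0.53 ± 0.05 (adjusted p = 1.97e-05). Cdkn2b (p15), an inhibitor of Cdk4 and Cdk6, rose by 0.26 ± 0.07 (adjusted p = 0.0165), while Cdkn2c (p18) fell by 0.22 ± 0.06 (adjusted p = 0.0293). The calls of Cdkn2b and Cdkn2c each ended without the first or second vehicle array or the second or the third at 50 µg/ml (adjusted p = 0.0570 to 0.0679 and 0.0645 to 0.124), which left 1 of the 3 calls. Cdkn1a (p21), Cdkn1b (p27) and Cdkn2a differed by 0.07 ± 0.07, -0.16 ± 0.07 and 0.20 ± 0.10 (adjusted p = 0.575, 0.125 and 0.203). Cdkn1b passed without the first array at 50 µg/ml (adjusted p = 0.0461).

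Of 24 G2 and mitosis genes 20 fell at 50 µg/ml and 0 rose, with a median of -0.33. The mitotic kinases Aurka and Plk1 fell by 0.54 ± 0.06 and 0.48 ± 0.05 (adjusted p = 5.05e-05 and 4.58e-05), and Ccnf fell by 0.61 ± 0.07 (adjusted p = 5.77e-05). The count was 7 without the first vehicle array or the second at 50 µg/ml, 10 without the second vehicle array, 11 without the third at 50 µg/ml and 13 without the third vehicle array.

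Markers of other cell types moved at the same dose, at which 17.6% of all genes were called (8.84% lower, 8.75% higher). Of 18 macrophage markers 17 fell at 50 µg/ml, all but Cd163 (0.04, adjusted p = 0.831), and their median difference was -1.19. Their median per array was 0.16 to 0.26 with the vehicle, -0.25 to 0.09 at 1 µg/ml, -0.04 to 0.22 at 10 µg/ml and -1.08 to -0.95 at 50 µg/ml. Csf1r, the macrophage growth factor receptor, fell by 1.78 ± 0.09 and the lysozyme gene Lyz2 fell by 2.32 ± 0.13 (adjusted p = 1.33e-07 and 1.67e-07). Of 15 cardiomyocyte markers 10 rose and the median was 0.24. That count was 5 without the third array of the vehicle or of 50 µg/ml and 6 without the first at 50 µg/ml. Of 9 smooth muscle and pericyte markers 4 fell and 3 rose, from -0.78 to 1.04, with a median of -0.09. Of 12 fibroblast markers 3 fell and 0 rose, from -0.57 to 0.17, with a median of -0.01, and 5 were called without the second array at 10 µg/ml. Of 9 endothelial markers 1 fell and 4 rose, with a median of 0.25. The 5 endothelial calls were 1 without the second array at 50 µg/ml, 2 without the third at 50 µg/ml or the first or the third vehicle array, and 3 without the second vehicle array. Of 8 epicardial and mesothelial markers 4 rose and 0 fell, with a median of 0.30, and 2 were called without the second vehicle array. The part of these cell types in the members' values was not tested.

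**Figure D3:**
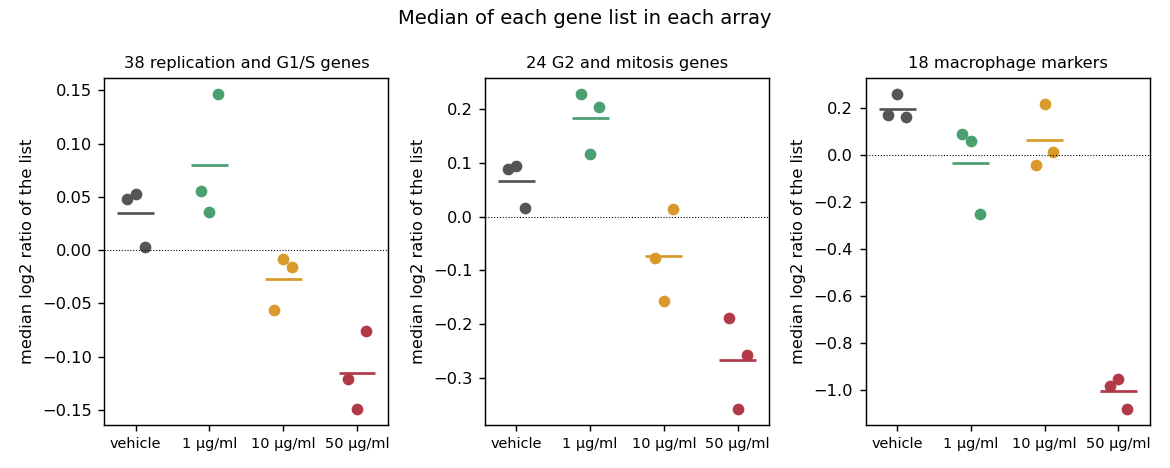
Median log2 ratio of the 38 members, of 24 G2 and mitosis genes and of 18 macrophage markers in each array (points) by dose group, with the mean of the 3 arrays as a line and a different y scale in each panel. The members' medians are -0.12, -0.15 and -0.08 at 50 µg/ml, below those of the other 9 arrays, and those of the macrophage markers are -1.08 to -0.95.

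At 1 µg/ml few members differed from the vehicle. Cdt1 was lower than with the vehicle and Chaf1b higher, so 2 of 38 members (5.26%) were called, against 4.24% of all genes (1.74% lower, 2.51% higher). The median of the members was 0.03, against -0.003 over all genes. In 3 members the 3 arrays lay all below those of the vehicle and in 7 all above, arrangements found in 14.1% and 16.7% of all genes. Of 9 endothelial markers 3 were lower and 0 higher at 1 µg/ml (median -0.34). Of 18 macrophage markers 3 were lower and 0 higher (median -0.26). The part of these cell types in the members' values was not tested.

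Cdt1 read -0.08, -0.02 and -0.13 at 1 µg/ml, all below the vehicle arrays (0.22, 0.09 and 0.16), and fell by 0.23 ± 0.06 (adjusted p = 0.0394). Chaf1b read 0.26, 0.12 and 0.16, all above the vehicle arrays (-0.0032, -0.07 and -0.09), and rose by 0.24 ± 0.05 (adjusted p = 0.0256). Neither call held in every omission of 1 array. That of Cdt1 ended in 9 of 12 omissions (adjusted p = 0.0508 to 0.140), and held only without the second array at 50 µg/ml or the second or the third at 10 µg/ml. That of Chaf1b ended in 5 of 12 (adjusted p = 0.0531 to 0.107), the first or the third array at 1 µg/ml or any vehicle array. The largest difference of any member here was that of Prim1, which read 0.35, 0.21 and 0.39 at 1 µg/ml against 0.01, -0.03 and -0.0044 with the vehicle. These groups did not overlap, but the difference of 0.32 ± 0.10 missed the threshold (adjusted p = 0.0879). Prim1 passed with array weights and in the fit of only the groups compared (adjusted p = 0.0120 and 0.00903). It also passed with quantile normalization applied again and with the replicate number as a block (adjusted p = 0.0462 and 0.0309). Leaving out the second or the third array at 10 µg/ml also made it pass.

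At 10 µg/ml 0 of the 38 members and 0 of 14324 genes (0%) passed in limma, with 7 members and 899 genes at an unadjusted p under 0.05. The array weights and quantile alternatives each called 1 member, which was Mcm5 in both (adjusted p = 0.0287 and 0.0497). The members' median was -0.06, against -0.006 over all genes. The 3 arrays lay all below those of the vehicle in 5 members (6.22% of all genes) and all above in 0 (5.01% of all genes). Mcm5 had the smallest p: it read -0.14, -0.06 and -0.06 at 10 µg/ml, all below the vehicle arrays, a difference of -0.32 ± 0.08 (adjusted p = 0.427). Cdt1 read 0.13, 0.21 and 0.02, overlapping the vehicle arrays, a difference of -0.04 ± 0.06 (adjusted p = 0.938).

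Between 50 and 1 µg/ml, 23 members were lower at 50 µg/ml and 1, Cdk4, was higher. This is 63.2% of the members, against 24.9% of all genes (13.4% lower, 11.5% higher), and the median was -0.22, against 0.02. In 26 members all 3 arrays at 50 µg/ml lay below those at 1 µg/ml (19.5% of all genes) and in 1 above (21.4%). The count was 12 without the second array at 50 µg/ml and 14 without the third at 1 µg/ml. These arrays are shared with each dose's own comparison with the vehicle. In this comparison too markers of other cell types moved: 17 of 18 macrophage markers were lower at 50 µg/ml (median -0.98), 7 of 9 endothelial markers were higher and 1 lower (median 0.51), and 5 of 9 smooth muscle markers were lower and 3 higher (median -0.19). Of 15 cardiomyocyte markers 6 were higher and 1 lower (median 0.17). Their part in the members' values was not tested.

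By role, 3 of 4 MCM subunits, 6 of 9 licensing genes, 5 of 9 fork genes, 3 of 5 nucleotide genes, 2 of 2 chromatin genes and 4 of 7 cyclins and CDKs were lower at 50 than at 1 µg/ml, and 0 of 2 E2F factors. Rrm2 fell by 0.49 ± 0.07 (adjusted p = 0.000394). Ccne2 read 0.32, 0.20 and 0.35 at 1 µg/ml, all above its arrays at 50 µg/ml (-0.02, -0.31 and -0.23), and fell by 0.47 ± 0.09 (adjusted p = 0.00332). Dut fell by 0.27 ± 0.05 (adjusted p = 0.00316), and Tk1 fell by 0.27 ± 0.06 (adjusted p = 0.00495). These calls were among the 10 of 24 that held in all 12 omissions of 1 array. That of Mcm6 ended in 5 omissions and that of Gins1 in 4. Those of Mcm7, Cdc6, Pcna, Ccnd1 and Cdk2 ended in 3 each. Quantile normalization applied again kept 17 of the 24 calls. Cdk4 rose by 0.17 ± 0.06 (adjusted p = 0.0390), which ended in 7 of 12 omissions (adjusted p = 0.0516 to 0.121): the second vehicle array, any array at 1 µg/ml, the first at 10 µg/ml, and the second or the third at 50 µg/ml. Cdt1 read low at both doses and differed by -0.15 ± 0.06 (adjusted p = 0.0631). It passed with arrays centred on their median (adjusted p = 0.0412), and without the second or the third array at 10 µg/ml.

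Between 50 and 10 µg/ml, Cdt1, Mcm10, Pole, Rrm2 and Cdk6 were lower at 50 µg/ml and Cdk4 was higher. These 6 are 15.8% of the members, near the 14.6% of all genes called (6.85% lower, 7.75% higher), and the median was -0.11, against 0.02 over all genes. The members' median was -0.0663 without the second array at 50 µg/ml. In 10 members all arrays at 50 µg/ml lay below those at 10 µg/ml (10.8% of all genes) and in 1 above (15.4%). Here too 17 of 18 macrophage markers were lower at 50 µg/ml and 0 higher (median -1.11). Of 9 smooth muscle markers 4 were lower and 3 higher, and of 9 endothelial markers 4 were higher and 1 lower. The part of these cell types in the members' values was not tested. Cdt1 fell by 0.35 ± 0.06 (adjusted p = 0.00107) and Rrm2 fell by 0.33 ± 0.07 (adjusted p = 0.00679). Of the 6 calls Cdt1's alone held in all 12 omissions and all 7 other alternatives. Quantile normalization applied again ended those of Rrm2, Cdk4 and Cdk6 (adjusted p = 0.0729, 0.0680 and 0.104). Fits of only the groups compared ended those of Mcm10, Pole, Cdk4 and Cdk6 (adjusted p = 0.134, 0.0592, 0.0949 and 0.0712). The calls of Mcm10 and Cdk4 ended without the second array at 50 µg/ml (adjusted p = 0.0581 and 0.0584) or the third at 10 µg/ml (adjusted p = 0.0902 and 0.0926), and that of Cdk4 also without the first at 10 µg/ml (0.0714) or the third at 50 µg/ml (0.0829).

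Between 10 and 1 µg/ml, Mcm5, Prim1, Pcna, Dut, Chaf1b, Ccne2 and Cdk2 were lower at 10 µg/ml and Cdt1 was higher. These 8 are 21.1% of the members, against 14% of all genes (9.2% lower, 4.77% higher), with a median of -0.10 against 0.005. In 16 members the arrays at 10 µg/ml all lay below those at 1 µg/ml (17.3% of all genes) and in 1 above (13.1%). Of 9 endothelial markers 5 were higher at 10 µg/ml and 0 lower (median 0.35). Of 15 cardiomyocyte markers 4 were higher and 0 lower (median 0.09), and of 9 smooth muscle markers 2 were lower and 0 higher. Of 18 macrophage markers 1 was lower and 1 higher, as among 8 epicardial and mesothelial markers. The part of these cell types in the members' values was not tested. Prim1 read -0.24, -0.47 and 0.0044 at 10 µg/ml, all below 0.35, 0.21 and 0.39 at 1 µg/ml, and fell by 0.55 ± 0.10 (adjusted p = 0.00593), the call that held in all 12 omissions. Cdt1 rose by 0.20 ± 0.06 (adjusted p = 0.0378), a call that ended in 6 of 12 omissions (0.0507 to 0.138). The count was 1 without the third array at 1 µg/ml and 3 without the first at 1 µg/ml or the first or second at 10 µg/ml.

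**Figure D4:**
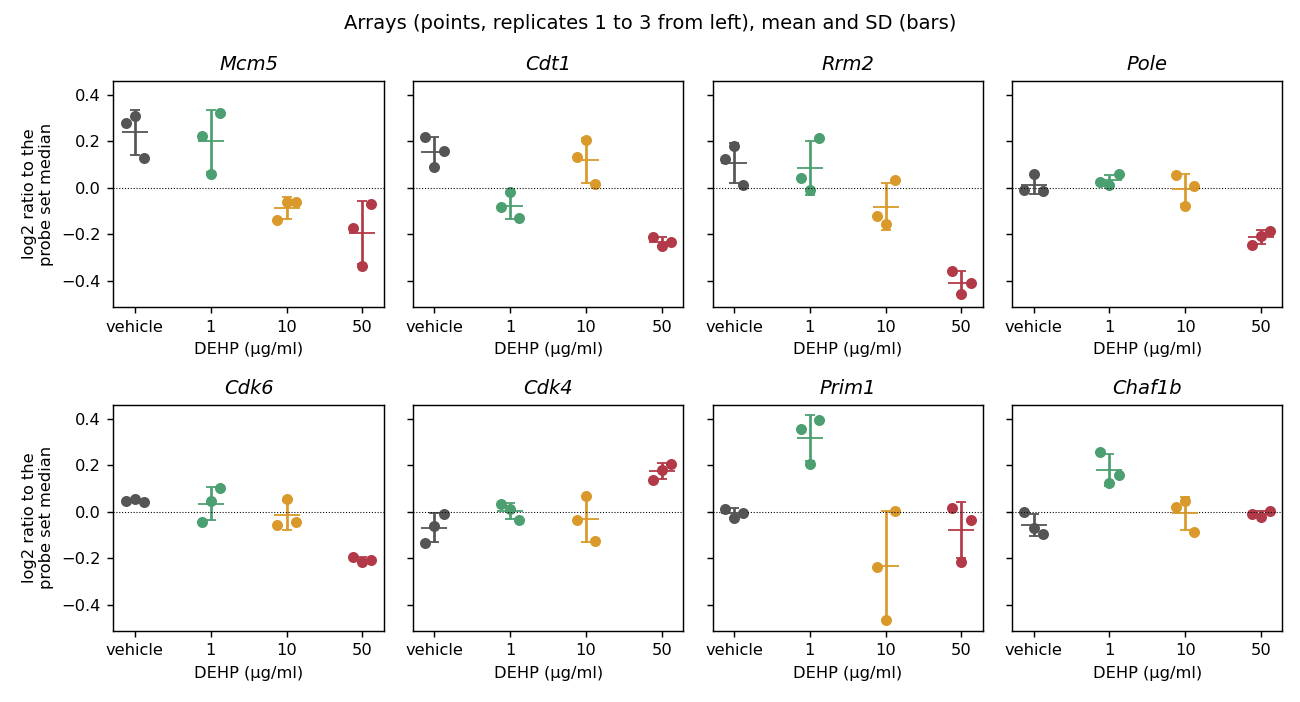
Log2 ratio to the 12-array median of 8 members in each array (points) by DEHP dose in µg/ml, with the mean (long horizontal line) and SD (bars with caps) of the 3 arrays of a group. Cdt1 lies below its vehicle arrays at 1 and 50 µg/ml but overlaps them at 10 µg/ml, Prim1 is highest at 1 µg/ml (0.35, 0.21 and 0.39), and Cdk4 is highest at 50 µg/ml (0.14, 0.18 and 0.21).

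The highest mean was at 1 µg/ml in 23 members, with the vehicle in 12, at 10 µg/ml in 2 and at 50 µg/ml in 1 (Cdk4). The lowest mean was at 50 µg/ml in 28 members, at 10 µg/ml in 7, with the vehicle in 2 and at 1 µg/ml in 1. With the ratio turned these tallies would change places, and the highest mean would be at 50 µg/ml in 28 members. The same tallies over all 14324 genes were not analysed, so whether they are particular to the members is not known. The median over the members was 0.05, 0.05 and 0.003 in the vehicle arrays, 0.06, 0.04 and 0.15 at 1 µg/ml, -0.06, -0.01 and -0.02 at 10 µg/ml and -0.12, -0.15 and -0.08 at 50 µg/ml. The 3 arrays at 50 µg/ml were thus the lowest of the 12 and the third at 1 µg/ml the highest.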

How the data were processed

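RNA of the 12 cultures was labelled from 5 µg of total RNA and hybridised to Affymetrix arrays, per the labels' protocols. Per the submitters' processing notes the authors used RMA (robust multi-array average), whose version the sources used here do not give. The authors' deposited values are linear ratios of each array to the probe set's median: on a log scale the 6th and 7th values of a probe set, ranked over its 12 arrays, averaged 0 within 1e-06, and values ran from 0.165 to 12.2. Ratios were converted to log2. Of 27342 probe sets 15097 had 1 gene symbol in the platform annotation, 323 several and 11922 none. Entrez identifiers matched 15067 to the GRCr8 gene table, which changed 0 symbols. Probe sets of a gene were averaged (499 genes; Rrm2 among the members).

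The limma package 3.58.1, run in R 4.3.3, fitted the group means over all 12 arrays (8 residual degrees of freedom, median residual SD 0.08), with two-sided tests adjusted by the Benjamini-Hochberg method over 14324 genes and a threshold of 0.05. The procedure was tested on simulated data. The members, the other lists, the motifs and the rule for named genes were chosen with earlier results of these data known. Per-array values were given for the 2 members of each role with the smallest p at 50 µg/ml, for every member past the threshold where 5 or fewer passed and for those called against the median's direction. Ccne2, Prim1 and Mcm10 were added after their values were seen. From other pathway lists the 3 genes of smallest p and a panel of regulators were named, and of the macrophage markers Csf1r and Lyz2 and, after its value was seen, Cd163. Rbl1 and Mki67 of that panel were not analysed here. No filter on dim probe sets, background correction or slide block was run, since the values hold no level and no scanner values or slides were used here.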

Additional observations from a re-analysis of the deposited data

Results flagged for a closer look

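Fen1 and Dut stood out because their arrays moved opposite ways at the lowest and highest dose. Fen1 read 0.11, 0.06 and 0.22 at 1 µg/ml, all above the vehicle (0.01, 0.04 and -0.01), and -0.06, -0.10 and -0.07 at 50 µg/ml, all below it. The difference between the doses, 50 minus 1 µg/ml, was -0.207 ± 0.06 (SE). Dut read 0.11, 0.12 and 0.27 at 1 µg/ml, all above the vehicle (0.0081, 0.02 and -0.0081), and -0.06, -0.13 and -0.12 at 50 µg/ml, all below it. Its difference was -0.272 ± 0.05. Both genes were picked for this pattern and for a limma adjusted p under 0.05 between these doses. That choice fixes the direction of the differences and favours large ones, so they are a description and were not tested as a pattern. The share of all genes with this pattern was not analysed here. The 3 arrays at 1 µg/ml lay all above the vehicle in 16.7% of all genes. Those at 50 µg/ml lay all below it in 16.5%. Neither gene passed against the vehicle at either dose.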

How the results depend on the processing

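Array weights called 4 members at 1 µg/ml, 1 at 10 µg/ml and 13 between 10 and 1 µg/ml, in place of 2, 0 and 8, and gave a median of -0.0475 in place of -0.108 between 50 and 10 µg/ml. Fits of only the groups compared called 4 at 1 µg/ml, 2 between 50 and 10 µg/ml and 2 between 10 and 1 µg/ml. Quantile normalization applied again called 1 at 10 µg/ml and 3 between 50 and 10 µg/ml, where 6 were called. The cause of these shifts was not tested. How many of all genes were called in the alternatives and omissions given in this section was not analysed here. Whether shifts of a count are particular to the members is therefore not known. Leaving out each array in turn gave 0 to 3 members at 1 µg/ml, 0 at 10 µg/ml and 8 to 20 at 50 µg/ml. Between doses it gave 12 to 26 (50 and 1 µg/ml), 4 to 6 (50 and 10 µg/ml) and 1 to 8 (10 and 1 µg/ml). The members' medians then ran from -0.184 to -0.14 at 50 µg/ml, from -0.238 to -0.178 for 50 and 1 µg/ml, from -0.11 to -0.0663 for 50 and 10 µg/ml and from -0.15 to -0.0939 for 10 and 1 µg/ml. The median was 0.00652 to 0.0624 at 1 µg/ml and -0.0876 to -0.0513 at 10 µg/ml. No median changed sign in these alternatives. Same-numbered arrays had deviations with r from -0.233 to 0.431, over 0.1 in 6 of 18 pairs, so the numbers were not taken to pair the samples. With the replicate number as a block, 3, 0 and 14 members were called at 1, 10 and 50 µg/ml, and 23, 6 and 8 between the doses. Of the 16 calls at 50 µg/ml, 8 held in all 12 omissions and all 7 other alternatives. Of those 7, Orc1 held in 5, Mcm10 in 4, and Rfc3 and Lig1 in 6 each. The dim probe filter, background correction and slide block were not run. Signal over background was not analysed here, so how far dim signal limits these values is not known.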
